A study of Mus musculus with 2 samples.

Results

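Secreted inflammatory signals were described in single EYFP+ cells of the adult mouse dentate gyrus (DG) by following 10 genes chosen by symbol, of 32285 genes in the deposited tables. They are the CC chemokines Ccl2, Ccl3, Ccl4 and Ccl12, the CXC chemokines Cxcl2, Cxcl10 and Cxcl16, the interleukin-1 genes Il1a and Il1b, and Tnf, and all 10 were found. Chemokines are small secreted proteins that draw leukocytes along a gradient through receptors of the CCR and CXCR families, and interleukin-1 and tumour necrosis factor start and amplify inflammation through NF-kB. In brain tissue, these genes are best known from microglia and other macrophages, where their messages are made in bursts after a stimulus and are short-lived.

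Cells were taken from NestinCreERT2;VEGFWT/WT;ROSA-STOP-EYFP mice (WT) and NestinCreERT2;VEGFfloxed;ROSA-STOP-EYFP littermates (iKD, labelled KO), all of them treated with tamoxifen (TAM) and 7–10 wk old when the experiment began. In both genotypes, TAM activates a Cre enzyme driven by the Nestin promoter, which switches on EYFP, and in iKD mice the same enzyme acts on the floxed Vegfa gene. The change is passed on to the progeny of cells in which it took place. DGs of 5 mice per genotype were pooled 21 d after TAM, dissociated mechanically, sorted for EYFP and run as 1 library per genotype. Mice within a pool cannot be told apart and no test between genotypes was possible, so every genotype difference below compares 2 libraries.

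The WT library held 5543 cells with a median of 8051 UMIs (unique molecular identifiers, each standing for 1 captured message), and the iKD library held 5261 cells with a median of 7080. The libraries shared 9 cell barcodes. Vegfa, the targeted gene, had 101 UMIs in WT and 52 in iKD cells over the 8 clusters used below, and 3′ counts cannot show whether the floxed part is missing. The clusters carry the names of the deposited tables. The study's sources do not use the names qNSC1 and qNSC2 in the same way throughout, and qNSC1 stands here for the deposited cluster of 292 cells and qNSC2 for that of 502. In the 8 clusters named for stem cells, progenitors and neuroblasts (qNSC1, qNSC2, aNSC, NSPCs, IPC1, IPC2, eNB and NB), 5283 WT and 5009 iKD cells, the markers went against these names: 10 microglia markers, Cx3cr1, P2ry12 and Tmem119 among them, summed to between 360 and 457 counts per 10000 UMIs, and 9 neural stem cell markers to between 0.0523 and 0.421. The 6 neuroblast markers summed to at most 0.0307. The names are therefore used here as labels only. Sex, read from Xist and 4 Y-linked genes, moved with both library and cluster: 57.6% of WT and 70.9% of iKD cells in the 8 clusters were scored female.

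Several members are neighbours in the genome (GRCm38, GENCODE). Ccl3 lies on the minus strand at chr11:83647844-83649355 and Ccl4 on the plus strand at chr11:83662584-83664683, with 13228 bases between them. Ccl2 (chr11:82035571-82037453) and Ccl12 (chr11:82101845-82103400) lie 64391 bases apart on the plus strand of the same chromosome. Il1a (chr2:129299610-129309972) and Il1b (chr2:129364570-129371139) are 54597 bases apart on the minus strand. Cxcl16 is at chr11:70453983-70459984, Cxcl2 and Cxcl10 at chr5:90903871-90905938 and chr5:92346638-92348889, and Tnf at chr17:35199381-35202007, and all 10 genes code for proteins.

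Promoter sequence was at hand for 7 members (Ccl3, Ccl12, Cxcl2, Cxcl10, Il1a, Il1b and Tnf), from RefSeq on GRCm38.p6. Shown here are the 250 bases before the start of 2 genes that were highest in the cluster named aNSC (Cxcl10 and Ccl12) and of 2 that were highest in qNSC1 (Ccl3 and Tnf). They are written 5′ to 3′ on the strand of the gene, at chr5:92348890-92349139 (minus strand), chr11:82101595-82101844 (plus strand), chr11:83649379-83649628 (minus strand) and chr17:35202008-35202257 (minus strand), in that order. Capitals mark every match, on either strand, to the NF-kB consensus, the AP-1 site TGACTCA, the core of the interferon-stimulated response element (ISRE) or the TATA box TATAAA.
Cxcl10: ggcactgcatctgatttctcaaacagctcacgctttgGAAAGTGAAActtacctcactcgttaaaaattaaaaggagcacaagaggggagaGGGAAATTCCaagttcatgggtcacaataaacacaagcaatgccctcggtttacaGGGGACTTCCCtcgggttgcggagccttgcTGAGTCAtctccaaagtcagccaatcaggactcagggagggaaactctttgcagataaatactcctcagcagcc
Ccl12: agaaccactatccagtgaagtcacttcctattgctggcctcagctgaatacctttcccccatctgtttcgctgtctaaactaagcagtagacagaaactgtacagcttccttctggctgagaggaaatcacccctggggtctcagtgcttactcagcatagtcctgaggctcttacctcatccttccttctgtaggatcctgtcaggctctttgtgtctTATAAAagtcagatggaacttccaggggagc
Ccl3: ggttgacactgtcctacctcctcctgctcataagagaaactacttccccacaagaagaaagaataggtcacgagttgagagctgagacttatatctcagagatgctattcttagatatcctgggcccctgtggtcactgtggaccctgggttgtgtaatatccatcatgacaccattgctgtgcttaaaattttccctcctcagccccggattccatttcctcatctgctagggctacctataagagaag
Tnf: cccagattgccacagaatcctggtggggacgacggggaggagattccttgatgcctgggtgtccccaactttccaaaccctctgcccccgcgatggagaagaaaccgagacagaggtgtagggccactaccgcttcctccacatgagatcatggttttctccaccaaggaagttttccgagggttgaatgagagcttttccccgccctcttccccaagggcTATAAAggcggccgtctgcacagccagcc
The Cxcl10 window held 3 matches to the NF-kB consensus, 2 of which overlap, with 1 AP-1 match and 1 match to the interferon core. The interferon core occurs in 2.98% and the NF-kB consensus in 7.25% of 32851 mouse promoter windows. Cxcl2 was the only other member with an NF-kB match, as 2 overlapping ones, and Il1a the only other with an AP-1 match, which 4.46% of all windows hold. TATAAA was found in Ccl12, Il1a, Il1b and Tnf, against 12.4% of all windows, and Ccl3 held none of these letters. None of the 7 held TGACG, the short core of the cyclic AMP response element, which 17.8% of all windows hold. A match describes letters in a window and does not show that a factor binds there.

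Members differed widely in abundance. Levels are given as UMIs of a gene per 10000 UMIs of a cell, averaged over cells. 3′ sequencing counts a message once whatever its length, but differences in capture between genes were not measured, so the order below is one of UMIs. Over the 8 clusters, Ccl4, a chemokine that draws monocytes and T cells, was highest at 2.19 in WT and 1.82 in iKD cells. Ccl12, a mouse chemokine related to Ccl2, followed at 1.499 and 1.384, Ccl3, a close relative of Ccl4, at 1.005 and 1.020, and Il1a, which encodes interleukin-1 alpha, at 0.808 and 0.945. Cxcl16, a chemokine made as a membrane-bound protein, stood at 0.369 and 0.323, and Tnf and Ccl2 stood lower. Cxcl10, an interferon-induced chemokine that draws T cells, had 121 UMIs in WT and 175 in iKD cells. Il1b, the classic inflammasome product, had 44 and 45 UMIs, and Cxcl2, which draws neutrophils, had 3 and 1. These last 2 genes did not reach the 100 UMIs asked of a gene before its ratio was compared with others, so that counts below over tested members are out of 8.

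The same genes also differed in how many cells carried them. Ccl12 had at least 1 UMI in 38.9% of WT and 38.4% of iKD cells, the widest spread of the set, followed by Il1a. Ccl4 was detected in 23.2% of WT (95% exact binomial interval 22.0 to 24.3) and 20.7% of iKD cells (19.6 to 21.9), and Ccl3 in 18.2% of each. The deeper library detects more cells at the same level, so cells were also thinned to 4500 UMIs each. Over all 12 clusters this left out 263 WT and 357 iKD cells of lower depth. Of the 8 clusters, 5184 of 5283 WT and 4769 of 5009 iKD cells were kept. After thinning, Ccl4 was found in 18.9% and 17.7%, Ccl12 in 29.3% and 30.8%, and Ccl3 in 14.8% and 15.3% of cells. Intervals here and below cover counting error only, not the spread between mice or the burst-like counts described further on.

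Free RNA in the droplets sets a floor under such shares. The cluster deposited as astrocyte, whose 130 iKD cells (median 7902 UMIs) carried choroid plexus markers at a summed level of 1094, served as a cell type that should lack these genes. In it Ccl12 and Il1a were each found in 8.46% of iKD cells, Ccl4 and Cxcl16 each in 7.69%, Ccl3 in 4.62%, Ccl2 in 3.85% and Tnf in 1.54%. Microglia markers were also present there, at a summed level of 83.9. Of these 130 iKD cells, 101 had no UMI of any member and 9 (6.92%) had 3 or more members. These shares are called the background below. Free RNA and doublets were not told apart, and the part of either was not tested. The cluster named NB (median 7118 UMIs in WT and 6173 in iKD) had Ccl4 in 6.14% and 6.16% of cells, not above that background. The Ccl3 shares of NB were 5.93% and 6.37%, slightly above the background of Ccl3. Neither gene's share in NB is read as expression. The shares compared here were not thinned, NB cells were shallower, and the background rests on 130 cells. The background comes from iKD cells only, since the astrocyte cluster held 4 WT cells. Single cells of NB can still be high, as 2 of 487 iKD and 0 of 472 WT cells had at least 10 Ccl4 UMIs. Choroid plexus markers were not equal in both libraries, as they summed to between 0.122 and 0.22 in the 8 clusters of WT and between 10.2 and 12.3 in those of iKD. In the other 7 clusters, Ccl4 was found in 13.6% to 76.1% of cells.

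The cluster named qNSC1, with 134 WT and 158 iKD cells, held the highest levels of most members. The clusters had been formed from the expression of the same cells, so differences between clusters are descriptions and were not tested. Ccl4 stood at 33.3 in WT and 21.0 in iKD cells of qNSC1, and Ccl3 at 10.3 and 8.67. Over both libraries, the level of Ccl4 in qNSC1 was 11.2 times that of the next cluster, IPC1, and the level of Ccl3 was 7.22 times. Tnf, the gene of tumour necrosis factor, stood at 1.58 and 1.19 in qNSC1, and its next cluster, aNSC, at 0.388 and 0.665. Il1b stood at 0.140 in WT and 0.242 in iKD cells of qNSC1 and at no more than 0.0236 in any other of the 8 clusters, and 45 of its 89 UMIs in the 8 clusters came from qNSC1.

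Cxcl16 and Il1a were spread more evenly over the clusters. Cxcl16 reached 1.15 and 0.845 there, against 0.519 and 0.564 in aNSC. Il1a was 1.56 in WT and 1.55 in iKD cells of qNSC1 and 1.14 and 1.45 in qNSC2, and its share of cells after thinning was as high in qNSC2 (34.2% and 42.6%) as in qNSC1 (36.8% and 42.1%), so that these 2 clusters were not separated for Il1a. Ccl2, a ligand of the monocyte receptor CCR2, stood at 2.53 in WT but 0.630 in iKD cells of qNSC1. In iKD cells its level was higher in aNSC (1.08) than in qNSC1. Ccl2 was therefore the 1 member whose highest cluster differed between libraries among the 8 that led in qNSC1.

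Of the 8 members with at least 100 UMIs, 6 were highest in qNSC1, where 24% of all 12094 genes tested were highest, and Il1b and Cxcl2, below that limit, were also highest there (Cxcl2 with 2 of its 4 UMIs). The level in qNSC1 was at least 2-fold the mean of the other 7 clusters for 5 of 8 members, against 2.72% of all genes. In female cells, in male cells, in WT cells and after thinning, 8 of 10 members were again highest in qNSC1, and 7 in iKD cells. These choices draw on the same cells. The members counted include Cxcl2 and Il1b, below the limit, and Il1a, for which qNSC1 and qNSC2 were not separated. With 2.84% of the cells of the 8 clusters, qNSC1 contributed 38.8% of the Ccl4 UMIs, 27.6% of those of Ccl3, 21.9% of Ccl2, 17.3% of Tnf, 8.47% of Cxcl16 and 5.29% of Il1a. Of 15 immediate early genes, which respond to stress and dissociation, 3 were highest in qNSC1 (Atf3 at 4.64, Ier3 at 1.20 and Nr4a1 at 0.182). Their sum, to which Jun, Btg2 and Fos gave the most, was 135 in WT and 136 in iKD cells of qNSC1, below the sums in the other clusters except NB, where it reached at most 59.3. NB was also the cluster with the lowest level of Ccl2, Ccl3, Ccl4, Ccl12, Il1a and Tnf, and the part of immediate early genes in the levels of either cluster was not tested.

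**Figure D1:**
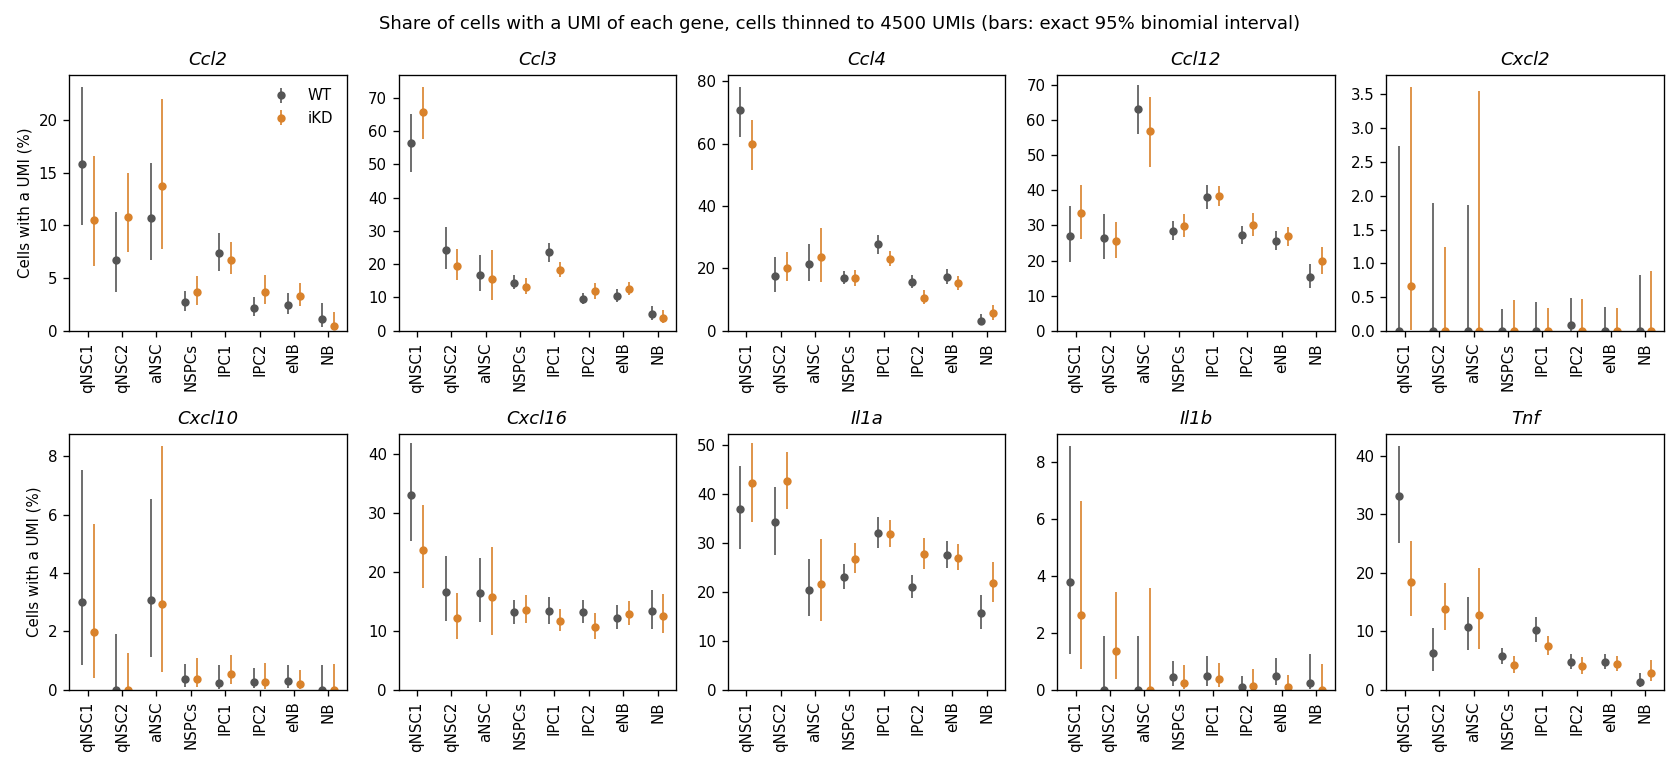
Share of cells (%) with at least 1 UMI of each of the 10 genes, by cluster, for WT (grey) and iKD (orange) cells thinned to 4500 UMIs. Points are shares and bars exact 95% binomial intervals. Ccl3 and Ccl4 are highest in qNSC1, where thinned shares of Ccl4 are 70.7% and 59.9%, whereas Ccl12 is highest in aNSC, at 63.3% and 56.9%.

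A pair of chemokines followed another pattern. Ccl12 was highest in the cluster named aNSC (197 WT and 108 iKD cells), at 8.07 in WT and 6.46 in iKD cells, against 2.23 and 2.46 in qNSC1. It was detected in 73.6% of WT and 64.8% of iKD cells of aNSC. Cxcl10 had 61 of its 121 WT UMIs and 136 of its 175 iKD UMIs in aNSC, but it was detected in only 3.05% and 3.70% of the cells there, against 2.99% and 1.90% in qNSC1. The same cluster was the highest for 10 of 10 interferon-response genes, whose summed level there was 27.5 in WT and 23.0 in iKD cells. In the other 7 clusters that sum lay between 0.503 and 0.898. Isg15, a ubiquitin-like protein induced by interferon, stood at 4.16 in aNSC and at no more than 0.144 in the others. With the 2 of 8 members that were highest in aNSC stands a background of 11.3% of all genes. Cxcl9, another chemokine with interferon-inducible expression on the lists, had 1 UMI in WT and 47 in iKD cells. Of these 47 UMIs, 46 were in 1 cell, and no level is read from Cxcl9.

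The UMIs of most members sat in few cells. In the 8 clusters, the 1% of cells with the most UMIs (103 cells) held 56.3% of all Ccl2 UMIs, 39.1% of Ccl4, 36.7% of Tnf and 30.7% of Ccl3. Il1a, with 11.9%, and Cxcl16, with 12.9%, were spread over many cells, mostly at 1 UMI each: 80.3% of the cells with Cxcl16 had a single UMI, against 32.4% of those with Ccl4. The highest count in 1 cell was 297 for Ccl4, 132 for Cxcl10, 101 for Ccl3, 96 for Ccl12, 92 for Ccl2, 37 for Tnf, 26 for Il1a and 9 for Cxcl16. The variance of the UMIs per cell was 48.2 times their mean for Ccl4 and 1.33 times for Cxcl16, where random counting alone gives a value near 1. Such cells decide single values. A Cxcl10 count of 132 in 1 iKD cell of aNSC was 75.4% of all Cxcl10 UMIs in iKD, and 1 WT cell held 40.5% of those in WT.

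**Figure D2:**
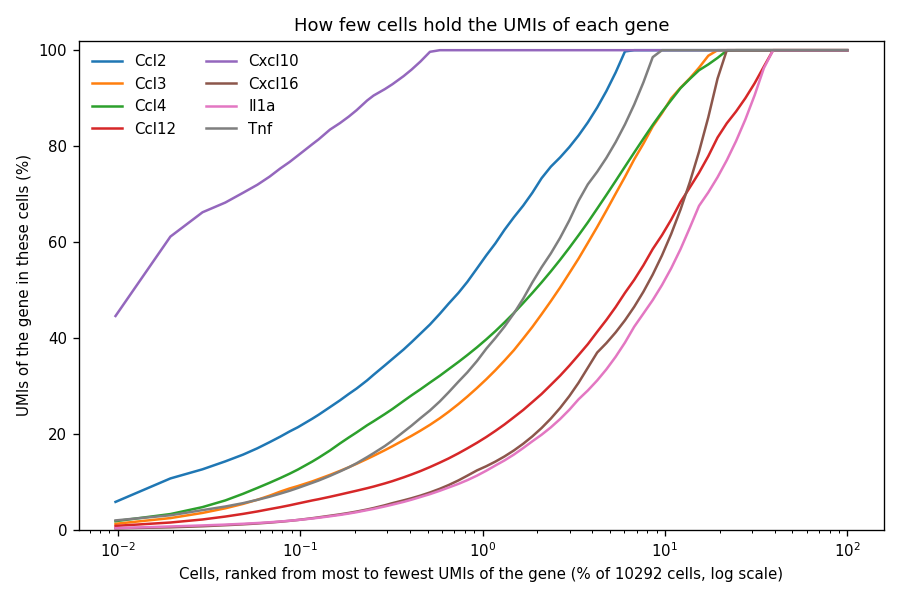
Cumulative share of the UMIs of 8 genes (vertical axis, %) in cells ranked from most to fewest UMIs of that gene (horizontal axis, % of the cells of the 8 clusters, log scale). The 1% of cells with the most UMIs hold 56.3% of Ccl2 and 11.9% of Il1a UMIs, and Cxcl10 rests on the fewest cells.

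Cells with many copies of Ccl4 were most frequent in qNSC1 but not restricted to it. At least 10 Ccl4 UMIs were found in 66 of 134 WT cells of qNSC1 (49.3%, exact interval 40.5 to 58.0) and 54 of 158 iKD cells (34.2%, 26.8 to 42.1). In IPC1 they were found in 8.77% of WT and 4.04% of iKD cells. For Ccl12, 153 cells in all had at least 10 UMIs, of which 11 lay in qNSC1. Carrying several members at once was likewise most frequent in qNSC1: after thinning, 3 or more members were found in 54.1% of WT and 47.4% of iKD cells, against 20.4% and 25.5% in aNSC, 19.9% and 15.3% in IPC1, 15.5% and 17.6% in qNSC2, and 1.35% and 3.38% in NB. The mean number of members per cell was 2.80 and 2.59 in qNSC1. Over the 8 clusters it was 1.13 and 1.17.

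Ccl3 and Ccl4 were found together more often than their shares would give. Within each cluster and library, the product of the shares of 2 genes gives the number of cells that would hold both if they were detected independently, and these numbers were summed. In thinned cells, Ccl3 and Ccl4 were both detected in 605 cells, where the product gave 362, a ratio of 1.67. Within qNSC1 this ratio was 1.19 in each library, against 1.79 in WT and 1.87 in iKD cells of IPC1. Without thinning, cells with neither gene numbered 21 of 134 WT and 27 of 158 iKD cells of qNSC1, and 30 and 25 cells had at least 10 UMIs of each. In the other 7 clusters, 56 WT and 52 iKD cells had at least 10 Ccl3 UMIs. Only 20 and 7 of them also had at least 10 of Ccl4. Across single cells of qNSC1, the log values of both genes had a Pearson correlation of 0.67 in 134 WT and 0.61 in 158 iKD cells. These cells share library, dissociation and depth, and the correlation is given as a description.

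**Figure D3:**
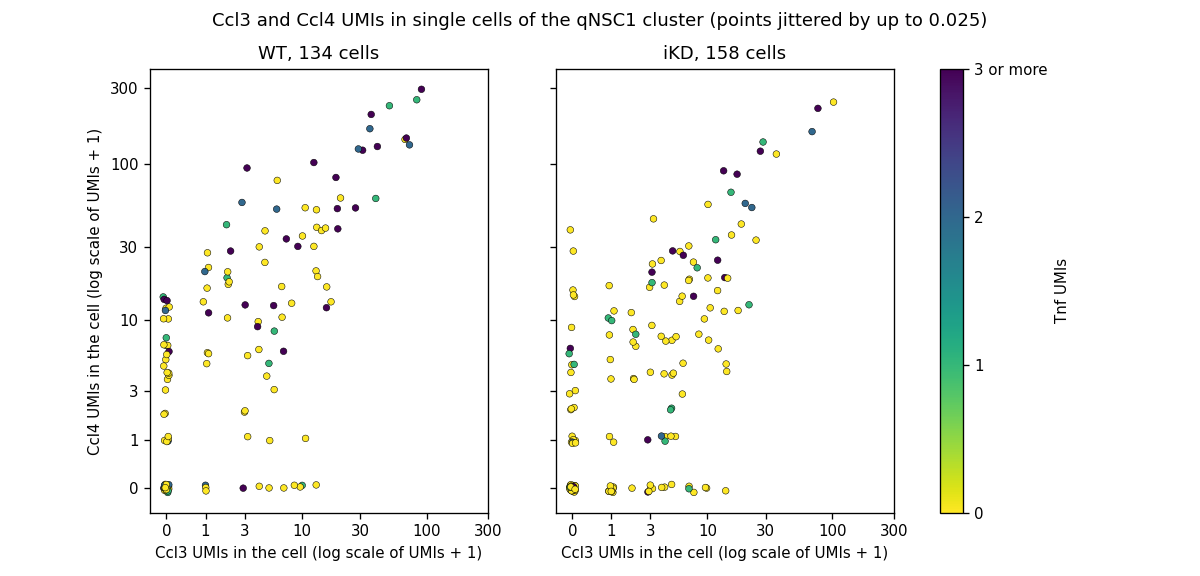
Ccl3 (horizontal) and Ccl4 (vertical) UMIs in each single cell of qNSC1, on a log scale of UMIs + 1, in 134 WT (left) and 158 iKD cells (right), coloured by Tnf UMIs. Cells with at least 10 Ccl3 UMIs mostly had at least 10 of Ccl4 (30 of 34 WT and 25 of 32 iKD cells). The reverse did not hold (30 of 66 and 25 of 54). No UMI of either gene was found in 21 WT and 27 iKD cells. Outside qNSC1, in the other 7 clusters, 20 of 56 WT and 7 of 52 iKD cells with at least 10 Ccl3 UMIs reached 10 of Ccl4.

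Other pairs departed less from the product. Of the 45 pairs, 31 had a product of at least 5 cells, and 27 of those had a ratio above 1, with a median of 1.14 and a range of 0.82 to 1.82. Ccl2 and Ccl12, the neighbours that both act on CCR2, were found together in 185 cells against 148 (ratio 1.25). Tnf was found with Ccl4 in 195 cells against 154 (1.26) and with Ccl3 in 148 against 130.0 (1.14). The 4 ratios below 1 were all of Cxcl16, with Ccl2 (0.92), Ccl3 (0.99), Ccl12 (0.98) and Il1b (0.82), while its ratios with Ccl4 (1.13), Tnf (1.13) and Il1a (1.10) were near the median. The highest ratio, 1.82 for Cxcl10 with Cxcl16, rested on 12 cells. When 2 UMIs were asked of each gene, all 20 pairs with a product of at least 5 cells had a ratio above 1, with a median of 1.31, and Cxcl16 then stood at 1.25 with Ccl3, 1.30 with Ccl12 and 1.46 with Ccl4. Cells deep in detected genes raise all such ratios, and thinning removes only differences in UMI number. Pairs of other genes were not counted, so that 27 of 31 is not read as particular to the members.

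**Figure D4:**
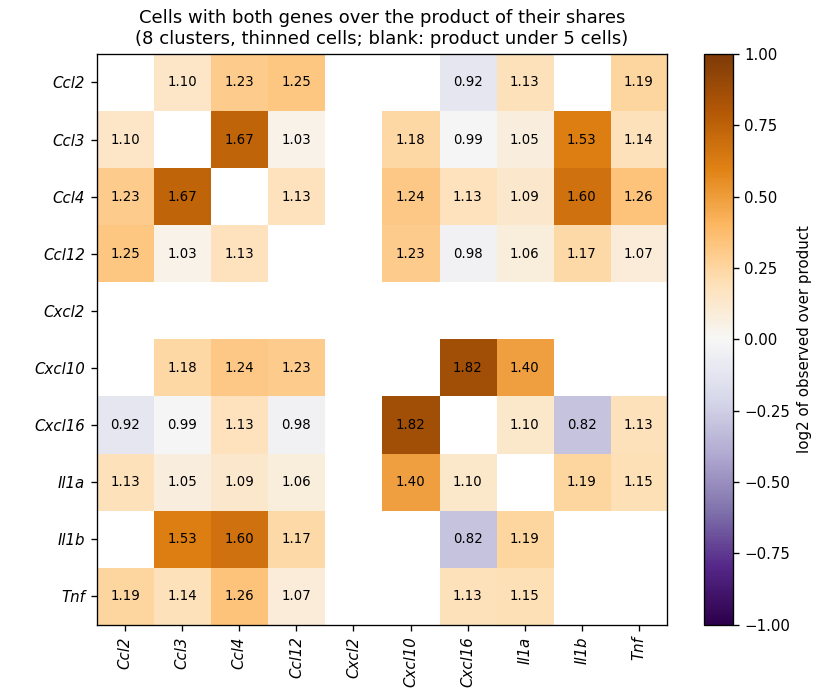
Number of cells with both genes over the number from the product of their shares, for the pairs of members with a product of at least 5 cells, in thinned cells of the 8 clusters. Colours give the log2 of the ratio printed in each square. Ccl3 with Ccl4 stands at 1.67, and the 4 squares below 1 are all of Cxcl16, which stands at 1.13 with Ccl4.

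Between genotypes, the members as a set hardly differed over the 8 clusters. A ratio here is the log2 of the level in iKD divided by that in WT, after adding 0.01 to both. The summed level of the 10 members was 6.35 in WT and 5.96 in iKD cells, a log2 ratio of -0.09 (counting interval -0.12 to -0.06). By a limit of 0.5 on the log2 scale, 0 of 8 tested members were lower in iKD, where 0.876% of all 12094 genes were, and 0 of 8 were higher, where 0.48% were. At any size, 5 of 8 were lower, against 45.5% of all genes. Of single members, Ccl4 had a log2 ratio of -0.26 (-0.31 to -0.22), Cxcl16 of -0.19 (-0.30 to -0.07) and Ccl12 of -0.11 (-0.17 to -0.06), while Il1a had 0.22 (0.16 to 0.29). As the mean of the 8 ratios within clusters, Ccl4 had 0.014 and Ccl12 -0.0023, and by thinned shares of cells -0.098 and 0.071. The Ccl4 mean includes the ratio of 1.60 in NB. Over 15 alternatives, Ccl4 ranged from -0.31 to 0.014 and Ccl12 from -0.39 to 0.071. No direction is read for these 2 genes, while Cxcl16 (-0.20 and -0.11) and Il1a (0.25 and 0.22) kept theirs. Ccl3, Tnf and Ccl2 had ratios of 0.02, -0.04 and -0.12, with counting intervals that include 0. Without qNSC1, the Ccl2 ratio was 0.25 (0.09 to 0.41). The Cxcl10 ratio of 0.49 became -0.35 when the cell with the most Cxcl10 was left out of each library.

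Ratios were also taken within each sex, with no test of the difference between sexes. In female cells, Ccl12 had a ratio of 0.04 (-0.03 to 0.10), and in male cells -0.39 (-0.50 to -0.29). For Ccl3 they were -0.07 (-0.15 to 0.01) and 0.39 (0.27 to 0.52), and for Ccl4 -0.31 (-0.36 to -0.25) and -0.01 (-0.10 to 0.08). Il1a was higher in iKD in both, by 0.09 (0.01 to 0.17) in female and 0.48 (0.34 to 0.62) in male cells. The summed level had ratios of -0.11 in female and 0.00 in male cells. The clusters were not equally mixed, since 91.2% of WT and 77.7% of iKD cells in IPC2 were scored male and 93.3% and 87.4% of those in eNB female, so that sex and cluster cannot be told apart in pooled values.

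Larger differences lay within clusters, and they went both ways. Over the 64 combinations of member and cluster with at least 4 UMIs in each library, counting intervals lay below 0 in 17, above 0 in 17 and included 0 in 30. In qNSC1, 6 of 7 tested members were lower in iKD at any size, against 47.8% of all 4422 genes tested in that cluster, and 2 of 7 were lower by at least 0.5, against 3.28%. The summed level of the 10 members was 53.0 in WT and 36.7 in iKD cells of qNSC1 (-0.53, -0.59 to -0.47). The 2 members past the limit were Ccl2, from 2.53 to 0.630 (log2 ratio -1.99, -2.38 to -1.61), and Ccl4, from 33.3 to 21.0 (-0.66, -0.74 to -0.59). Ccl2 rested on few cells, as 6 of 134 WT and 2 of 158 iKD cells had at least 10 UMIs, but its ratio was still -1.80 without the top cell of each library. Tnf had a ratio of -0.40, and of -0.71 without the top cells, Cxcl16 of -0.43 and Ccl3 of -0.25, while Il1a had -0.02 and Ccl12 0.14, both with intervals that include 0.

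In qNSC1, Ccl4 was lower in iKD in both sexes, by a ratio of -0.48 (-0.57 to -0.39) in 86 WT and 108 iKD female cells and -0.62 (-0.76 to -0.49) in 41 male cells of each genotype, the latter -1.08 without the top cells. Ccl2 was lower in both as well, at -1.82 and -1.93, and without the top cells at -1.15 in female cells (-1.81 to -0.52) and -0.57 in male cells (-2.07 to 0.84). Thinned shares of Ccl4 in qNSC1 were 70.7% in WT (exact interval 62.2 to 78.2) and 59.9% in iKD (51.6 to 67.7), and those of Tnf 33.1% (25.2 to 41.8) and 18.4% (12.6 to 25.5). For Ccl3 the share was higher in iKD (65.8%) than in WT (56.4%) while the level was lower, so no direction is read for Ccl3.

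In aNSC, 6 of 8 members were higher in iKD by at least 0.5, against 3.96% of 4470 genes: Ccl2 (0.97), Ccl3 (0.51), Ccl4 (0.56), Cxcl10 (2.05), Il1a (0.58) and Tnf (0.76). Without the top cell of each library, Ccl3 stood at 0.29, Ccl4 at 0.25, Tnf at 0.60 and Cxcl10 at -0.81, with intervals that include 0, whereas Ccl2 (0.82) and Il1a (0.53) kept intervals above 0. Ccl12, the leading member in this cluster, had a ratio of -0.32 (-0.47 to -0.17). Sex was almost exchanged between libraries in aNSC, with 70.6% of WT cells scored male and 88.9% of iKD cells scored female. Among the 38 WT and 96 iKD female cells, Ccl4 had a ratio of -0.78 (-1.17 to -0.39) and Ccl12 of -0.94 (-1.16 to -0.73), so that the direction for Ccl4 was turned. Only 6 iKD cells were scored male, in which Ccl4 had 15 UMIs. The part of sex in the aNSC ratios was not tested beyond these values. Ratios within a sex are given here for Ccl4 and Ccl12 only, so no direction is read for Ccl2 and Il1a in aNSC.

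In IPC1, which over both libraries had the next highest levels of Ccl3 and Ccl4, 7 of 7 tested members were lower in iKD at any size, against 47.5% of all genes, and 2 of 7 by at least 0.5, against 0.95%. Ccl4 went from 2.97 to 1.93 (-0.62, -0.71 to -0.52) and Ccl3 from 1.57 to 1.10 (-0.51, -0.64 to -0.38). In the 709 WT and 1013 iKD female cells of IPC1 the ratios were -0.62 and -0.60. In male cells, 97 and 59, they were 0.24 (-0.05 to 0.52, and -0.11 without the top cells) and 0.66 (0.27 to 1.05). Among the other clusters, 1 of 7 members was lower by at least 0.5 in IPC2 (Ccl4 at -0.64, background 1.31%) and in NSPCs (Tnf at -0.68, background 0.904%). Higher by at least 0.5 were 2 of 7 in qNSC2 (Ccl2 at 0.65 and Tnf at 0.87, background 2.48%), 1 of 7 in eNB (Ccl3 at 0.51, background 0.821%) and 1 of 4 in NB (background 1.35%). The Ccl4 ratio of 1.60 in NB came from 40 UMIs in WT and 114 in iKD, in a cluster whose share of cells was at the background. At least 10 Ccl4 UMIs were found in 2 of its 487 iKD and 0 of its 472 WT cells, so the ratio may rest on few cells.

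**Figure D5:**
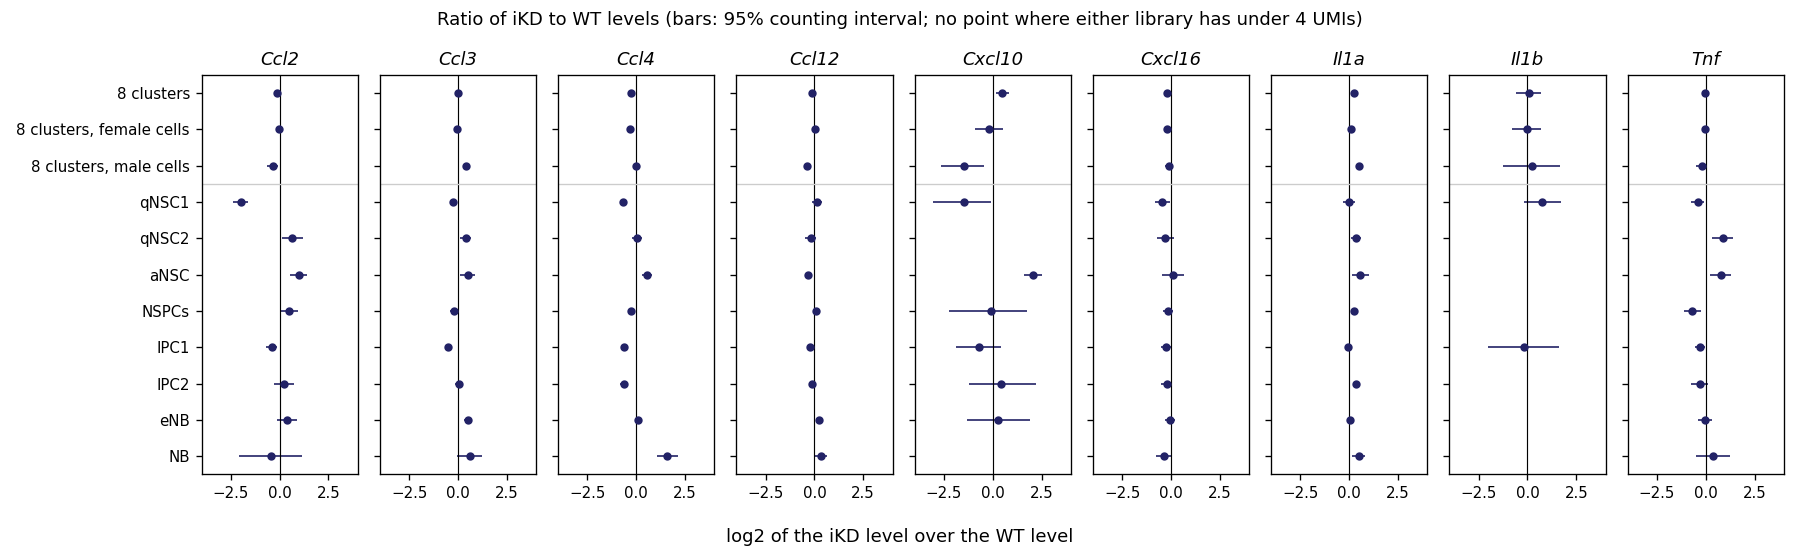
Log2 ratio of the iKD over the WT level (horizontal axis) for 9 genes, over the 8 clusters, in female and male cells of the 8 clusters, and within each cluster (rows). Bars are 95% counting intervals, and no point is drawn where either library had under 4 UMIs. Apart from Cxcl10 (0.49), ratios over the 8 clusters lie between -0.26 and 0.22. Points of qNSC1 and aNSC lie on opposite sides of 0 for every gene with a point in both, with qNSC1 the higher only for Ccl12. For Cxcl10 this holds only with the top cells. Intervals include 0 for Il1a and Ccl12 in qNSC1, for Cxcl16 in aNSC and, without the top cells, for Ccl3, Ccl4 and Tnf in aNSC.

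The receptors of these ligands were measured in the same cells. Of 11 receptor genes, 8 had at least 100 UMIs in the 8 clusters, and 0 of 8 differed between genotypes by 0.5 in either direction. The tumour necrosis factor receptors Tnfrsf1a (1.16 and 1.10) and Tnfrsf1b (1.05 and 0.985) were at similar levels in all of the 8 clusters. Ccr2, the receptor for Ccl2 and Ccl12, was found in 1.59% of cells, Il1r1, the signalling interleukin-1 receptor, in 1.20%, and Cxcr6, the receptor of Cxcl16, in 0.36%.

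Of 7 genes for maturation and shedding of these factors, 0 differed by 0.5. They included Adam10 and Adam17, membrane proteases that release Cxcl16 and tumour necrosis factor, at 3.70 and 1.71 in WT cells. Nlrp3 and Casp1, of the inflammasome that matures interleukin-1 beta, stood at 0.878 and 0.356 in WT cells, while Il1b itself was nearly absent. Of 10 NF-kB genes, 0 differed by 0.5. The inhibitor Nfkbia, itself an NF-kB target, had the most negative ratio among them, -0.37, from 3.41 to 2.63. The summed NF-kB list was higher in cells with Ccl3 than in cells without it in 12 of 16 combinations of cluster and library after thinning, and likewise in 12 of 16 for Il1a, 12 of 14 for Ccl2 and 11 of 15 for Tnf, but in 10 of 16 for Ccl12, 9 of 16 for Ccl4 and 8 of 16 for Cxcl16. For the immediate early genes the counts were 12 of 16 for Ccl3 and Il1a, 10 of 16 for Ccl4 and Ccl12, 9 of 16 for Cxcl16, 7 of 14 for Ccl2 and 5 of 15 for Tnf. For the microglia markers they were 4 of 16 for Ccl3 and Il1a, 5 of 16 for Ccl4, 10 of 16 for Cxcl16, 12 of 16 for Ccl12, 4 of 14 for Ccl2 and 8 of 15 for Tnf. Interferon-response genes gave between 7 and 10 for each member. Such counts were not taken over other genes, so no link is read from them, and those for Ccl3 and Ccl4 include NB. None of 15 immediate early genes and none of 6 regulators of message decay differed between genotypes by 0.5, and the median ratio of the former was 0.12.

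Chemokines and cytokines outside the set were in part also highest in qNSC1. Of 15 other chemokines, 5 had at least 100 UMIs and 0 differed by 0.5 between genotypes. Of these 5, 3 were highest in qNSC1 and 1 in aNSC, where 24% and 11.3% of all genes were highest. Ccl6 (2.77), Ccl9 (2.07) and Ccl7 (0.247) were highest in qNSC1, and Ccl5 was highest in aNSC (0.426). Of 12 other cytokines, 7 had at least 100 UMIs, with Tgfb1 the most abundant at 3.08 in WT and 2.96 in iKD cells. Of these 7, 3 were highest in qNSC1 and 2 in aNSC. Csf1, the growth factor of microglia and macrophages, stood at 2.39 in qNSC1 and at no more than 0.577 elsewhere. The 1 cytokine past the limit was Il12b, with a ratio of 1.59, and 103 of its 104 iKD UMIs came from 1 cell of qNSC1. Of 10 interferon-response genes, 7 were lower in iKD by at least 0.5 over the 8 clusters, against 0.876% of all genes. In these clusters, aNSC cells made up 3.73% of WT and 2.16% of iKD cells. They were mostly male in WT and mostly female in iKD. The part of cluster shares or sex in the interferon-response ratios was not tested.

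The genes whose log values followed a member most closely, over 5283 WT and 5009 iKD cells and 9390 genes, were often other members. For Ccl4 the closest gene was Ccl3 (Pearson correlation 0.42 in WT and 0.38 in iKD), followed by Olfr111, Cd63, Cd83 and Ctsb, and the same 4 followed Ccl4 for Ccl3. For Ccl12 the closest were Isg15 (0.21 and 0.13), Ccl2, Rtp4, Ccl4 and Btg2, and 2 of these, Isg15 and Rtp4, are induced by interferon. For Il1a it was Gm14023 (0.20 and 0.18), a transcript that runs opposite to Il1a at chr2:129297370-129307826 and shares 8217 bases of its span, followed by Ccl4, H3f3b, Cd83 and Atf3. Values below 0.25 in such sparse counts are weak, and the points share library and depth.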

How the data were processed

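Single-cell RNA was sequenced with a 10x 3′ kit from EYFP+ cells, in 1 WT and 1 iKD library. The submitters' processing notes list Cell Ranger 7.0.1 and Seurat 4.1.1, and a human build, GRCh38, for these mouse cells. The methods give lower and upper limits on genes per cell, the lower at 2000, yet 496 deposited cells had fewer than 2000 genes. The authors deposited natural log values, ln of 1 plus counts per 10000 UMIs of the cell, in 12 tables, 1 per cluster. UMI counts were recovered from them and 100% of values came out whole within 0.01. All cells were kept and no doublet caller was run. With 1 library per genotype no p-value was computed. Shares have exact binomial intervals, and ratios carry the exact binomial interval of the summed UMIs, at 95%.

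The named genes were the 10 members, list genes past a log2 ratio of 0.5 or with the highest level of their list, and the 5 genes with the highest correlation for the 4 members with the most UMIs. Genes named beyond this rule were chosen after their values were seen. Members and lists were chosen with earlier results of these data known. Alternatives were other cluster pools, the mean of within-cluster ratios, CPM, pseudocounts of 0.001 and 0.1, other denominators, median scaling, single sexes, cells with at least 2000 genes or without the 5% with the most, and thinned shares. The steps were tested on simulated data. Tools were pandas 2.3.3, numpy 2.4.6, scipy 1.17.1 and matplotlib 3.10.9 under Python 3.11.15. The values of 1 receptor gene are not reported here.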

Additional observations from a re-analysis of the deposited data

Results flagged for a closer look

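For 6 members, the ratio between genotypes had a counting interval below 0 in 1 cluster and above 0 in another, a difference between clusters that was not tested. Ccl2 had a log2 ratio of -1.99 in qNSC1 and 0.97 in aNSC. Ccl3 had -0.51 in IPC1 and 0.51 in aNSC. Ccl4 had -0.66 in qNSC1 and 1.60 in NB. Ccl12 had -0.32 in aNSC and 0.34 in NB, Cxcl10 -1.46 in qNSC1 and 2.05 in aNSC, and Tnf -0.68 in NSPCs and 0.87 in qNSC2. Without the top cell of each library, the Cxcl10 ratio in aNSC was -0.81 and the Ccl3 ratio there 0.29. The aNSC cells were mostly male in WT and mostly female in iKD. The share of NB cells with Ccl4 was not above the background taken from the cluster deposited as astrocyte, while that of Ccl12 (21.8% in WT and 25.5% in iKD) was. At least 10 Ccl4 UMIs were found in 2 of 487 iKD cells of NB.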

How the results depend on the processing

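No paired analysis was possible because each genotype has 1 library and no test was made. The summed member ratio of -0.09 was -0.12 over the 6 clusters without eNB and NB, -0.017 as the mean of the 8 ratios within clusters, 0.00018 in male cells, 0.053 for thinned shares of cells and -0.048 without qNSC1, the last chosen after seeing the data, and under the other 9 alternatives it lay within its counting interval. The number of members lower in iKD at any size was 6 of 10 and ranged from 5 to 8. The members highest in qNSC1 numbered 8 of 10, or 7 in iKD cells only. Genes lower by at least 0.5 numbered 106, against 173 with a limit of 20 UMIs and 174 with none, and genes higher 58, against 115 and 120. The pseudocounts, median scaling and the other denominator changed the sign of 0 of 10 members, while thinned shares and female cells each changed 5. With 1 library per genotype, the spread between mice is unknown, and Cxcl2, Il1b and Cxcl10 are too sparse at this depth for a direction.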
